A study of Mus musculus with 30 samples.

Results

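The genes described here encode the Mediator complex, the large assembly that bridges gene-specific transcription factors and RNA polymerase II. They were chosen by name: every probe set of the array whose single gene symbol was Med followed by a number, with or without a final l, or was Cdk8, Cdk19 or Ccnc. This gave 33 genes of the 18193 with such a probe set, measured by 72 of 45101 probe sets. Each gene was represented by its probe set with the highest mean log2 signal over all 30 arrays, so that only the mean level entered the choice, and neither the state nor the pool did. All 33 genes passed the filter on low signal, and 13240 genes in all were tested.

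Mediator is described in modules. The head contacts RNA polymerase II and the general factors at the promoter, the middle links the head to the scaffold subunit Med14, and the tail holds many of the contacts with activators bound at enhancers. A separable kinase module, made of Cdk8 or its paralog Cdk19, cyclin C (Ccnc), Med12 or Med12l, and Med13 or Med13l, docks on the core and can block its contact with the polymerase. In embryonic stem cells Mediator is known for its occupancy of the enhancers of pluripotency genes, together with cohesin. Med27, Med28, Med29 and Med30 are placed in the head or in the tail depending on the source, and are kept as a group of their own.

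Embryonic stem cells (ESC) of the mouse line R-1, kept undifferentiated with the cytokine LIF, were compared with their progeny after 5 days without LIF, grown as embryoid bodies (EB), aggregates in which differentiation begins. The labels name no genetic change in either state, and cells of both were exposed to cycloheximide at 150 ug/ml for 15 min, which arrests ribosomes on the mRNA. Cytoplasmic lysate was spread over a sucrose gradient, its 12 fractions were joined into 4 pools, and RNA was also taken from unfractionated lysate (total RNA). Each of 3 cultures per state gave 1 array for every pool and 1 for total RNA, from 2.5 ug of RNA each. Because a gradient sorts mRNAs by the ribosomes they carry, the question was where each mRNA lay in it, but the labels used here do not state at which end pool 1 was taken, so the pools are named by number only.

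The mean linear signal of the arrays ranged from 72.4 to 578 on the deposited scale, and on the 24 pool arrays between 18.3% and 59.1% of probe sets lay at a shared lowest value. Among the 33 genes, Med12l lay at that value on 3 pool arrays (ESC pool 4 of cultures 1 and 3, EB pool 1 of culture 1) and Med27 on 1 (ESC pool 1 of culture 3). The EB pool 2 array of culture 3 stood apart: the lowest correlation of arrays within a group, 0.92, was between it and culture 1. The signal from the 3′ end of the Actb mRNA exceeded that from the 5′ end by a log2 value of 3.10 ± 0.29 (SD, n = 3) in ESC total RNA and 2.26 ± 0.22 in EB total RNA, and by 2.30 to 4.10 over the means of the ESC pools against 0.74 to 2.55 over those of the EB pools. For pools 1 to 4 the means were 4.06, 4.10, 2.69 and 2.30 in ESC and 2.55, 1.66, 1.10 and 0.74 in EB. This measure of RNA integrity and labelling thus moved with the state in every pool. Within each state it was also lower in pools 3 and 4 than in pools 1 and 2. Its part in the differences between states or pools below was not tested. All 7 pluripotency markers were above the filter, and their summed linear signal in total RNA was 19813 to 21235 in ESC and 34835 to 42430 in EB. These sums are on the deposited scale, on which the median of all genes was 0.96 (log2) higher in EB. Relative to all genes Klf4 was called lower in EB (-1.69, adjusted p in limma 0.000736; -0.51 on the deposited scale), Nanog was called higher (0.54, adjusted p 0.0249) and the other 5 were not called. On the deposited scale the 3 primed epiblast markers summed to 1089.7 to 1329 in ESC and 4105 to 4556 in EB, the 4 of primitive streak and mesoderm to 75.4 to 97.7 against 324 to 371, and the 4 neural markers to 201 to 267 against 380.5 to 556. The 6 endoderm markers summed to 59.5 to 106 in ESC and 527 to 550 in EB, the 5 fibroblast feeder markers to 104 to 177 against 208 to 269, and 2 in each of the last 2 lists were below the filter. Not every marker rose with the sum of its list. Sox1, a neural marker, had a deposited log2 signal of 4.87 to 5.77 in ESC and 1.94 to 4.38 in EB. The states overlapped for Fgf5, Nes, Mixl1, Kdr, Gata4, Foxa2, Afp, Col1a2, Col3a1 and Thy1. The part of these cell types in the differences was not tested.

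Values are given on a log2 scale relative to all genes: the deposited signal plus 32, quantile-normalized over the arrays compared. On the deposited scale whole arrays differed in level. In total RNA, the deposited-scale difference of EB from ESC had a median of 0.96 over all genes, which the relative scale takes out. A difference was called when its adjusted p in limma (Benjamini-Hochberg over all 13240 genes) was under 0.05. Errors are standard errors of limma with 3 cultures per state, and the span of the p-values is limited by that number. In such bulk RNA, fewer cells of a type and less RNA per cell cannot be told apart.

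In total RNA, relative to all genes, Med7 and Med26 were higher in EB and Ccnc and Med19 were lower, the last 2 being above 0 on the deposited scale. The other 29 of 33 Mediator genes were not called. The background was 6.47% of all genes called higher and 5.88% called lower, so the 2 calls in each direction were close to the share among all genes. The median difference was 0.05 for the 33 genes and 0.01 for all genes. On the deposited scale all 33 were called higher in EB by limma and 0 lower, also at an unadjusted p under 0.05 (78.8% and 0.317% of all genes), with differences from 0.46 for Ccnc to 2.24 for Med7 and a median of 1.23.

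Med7, a middle subunit that pairs with Med21 to form the flexible hinge of the module, had the highest difference. Its level was 8.98, 8.79 and 8.89 in ESC and 9.85, 9.85 and 9.91 in EB total RNA. Every EB culture was above every ESC culture. The difference was 0.98 ± 0.11 (adjusted p = 0.00396), and it was called under each of the 14 alternative settings. Med26, the middle subunit that contacts elongation factors, stood at 7.77, 7.93 and 7.97 in ESC and at 8.34, 8.42 and 8.34 in EB. The groups did not overlap and the difference was 0.47 ± 0.11 (adjusted p = 0.0360). This call was lost whichever culture was left out, with adjusted p-values from 0.0610 without ESC culture 3 to 0.108 without EB culture 2.

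Ccnc, the cyclin that activates Cdk8 and Cdk19, was at 8.84, 8.64 and 8.72 in ESC and at 8.13, 7.80 and 7.90 in EB total RNA. All EB cultures were below all ESC cultures, by 0.79 (SE 0.13, adjusted p = 0.0129), while the deposited-scale difference was +0.46, where the median of all genes was 0.96. Without EB culture 2 the adjusted p of Ccnc was 0.0513. The call rests on 1 of its 3 probe sets above the filter: the other two, at lower signal, gave differences of +0.22 and +0.13, and the mean of the 3 gave -0.15 (adjusted p = 0.408). Med19, a middle subunit, stood at 9.16, 9.02 and 9.30 in ESC and 8.81, 8.52 and 8.65 in EB, without overlap. Its difference of -0.50 ± 0.13 (adjusted p = 0.0494) was +0.78 on the deposited scale and was not called when any culture was left out (adjusted p from 0.0657 to 0.137). Its second probe set had a difference of -0.92.

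To show what lies just before the transcripts of the genes with the largest calls in each direction, the 250 bases upstream of their listed RefSeq starts (GRCm38.p6) are given 5′ to 3′ on the strand of the gene, with matches to TATAAA (the TATA box), CCAAT (the motif bound by NF-Y) and GGGCGG (the GC box), on either strand, in capitals. The Med7 stretch is chr11:46436697-46436946 on the plus strand, at the first of 2 listed starts, and the Ccnc stretch is chr4:21727451-21727700 on the plus strand.
Med7: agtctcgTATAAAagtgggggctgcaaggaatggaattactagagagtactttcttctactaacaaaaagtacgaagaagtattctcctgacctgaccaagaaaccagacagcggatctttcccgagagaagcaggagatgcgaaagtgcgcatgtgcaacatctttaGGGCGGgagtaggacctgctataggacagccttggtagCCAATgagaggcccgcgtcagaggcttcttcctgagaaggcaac
Ccnc: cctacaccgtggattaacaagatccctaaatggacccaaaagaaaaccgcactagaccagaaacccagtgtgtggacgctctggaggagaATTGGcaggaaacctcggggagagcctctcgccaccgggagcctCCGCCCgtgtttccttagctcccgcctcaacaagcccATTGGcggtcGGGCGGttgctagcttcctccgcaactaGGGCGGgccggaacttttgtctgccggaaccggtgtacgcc

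RefSeq promoters matched 28 of the 33 genes by symbol. A GC box lay in this window in 19 of the 28 (67.9%), against 32.7% of all 32851 promoters in the table, and an ETS motif (CCGGAAG, either strand) in 6 (21.4%, against 6.91%). The CCAAT motif was found in 11 (39.3%, against 33.8%) and TATAAA in 3 (10.7%, against 12.4%; Med7, Med16 and Med28). The Mediator shares count genes, while the background shares count promoters, and a gene can have further listed starts, as Med7 does. The shares are thus not of like units, and no excess over the background is drawn from them. These are matches of letters only, and the motifs searched do not overlap each other. Both promoters printed above hold a GC box and a CCAAT motif, although Med7 was called higher and Ccnc lower.

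**Figure D1:**
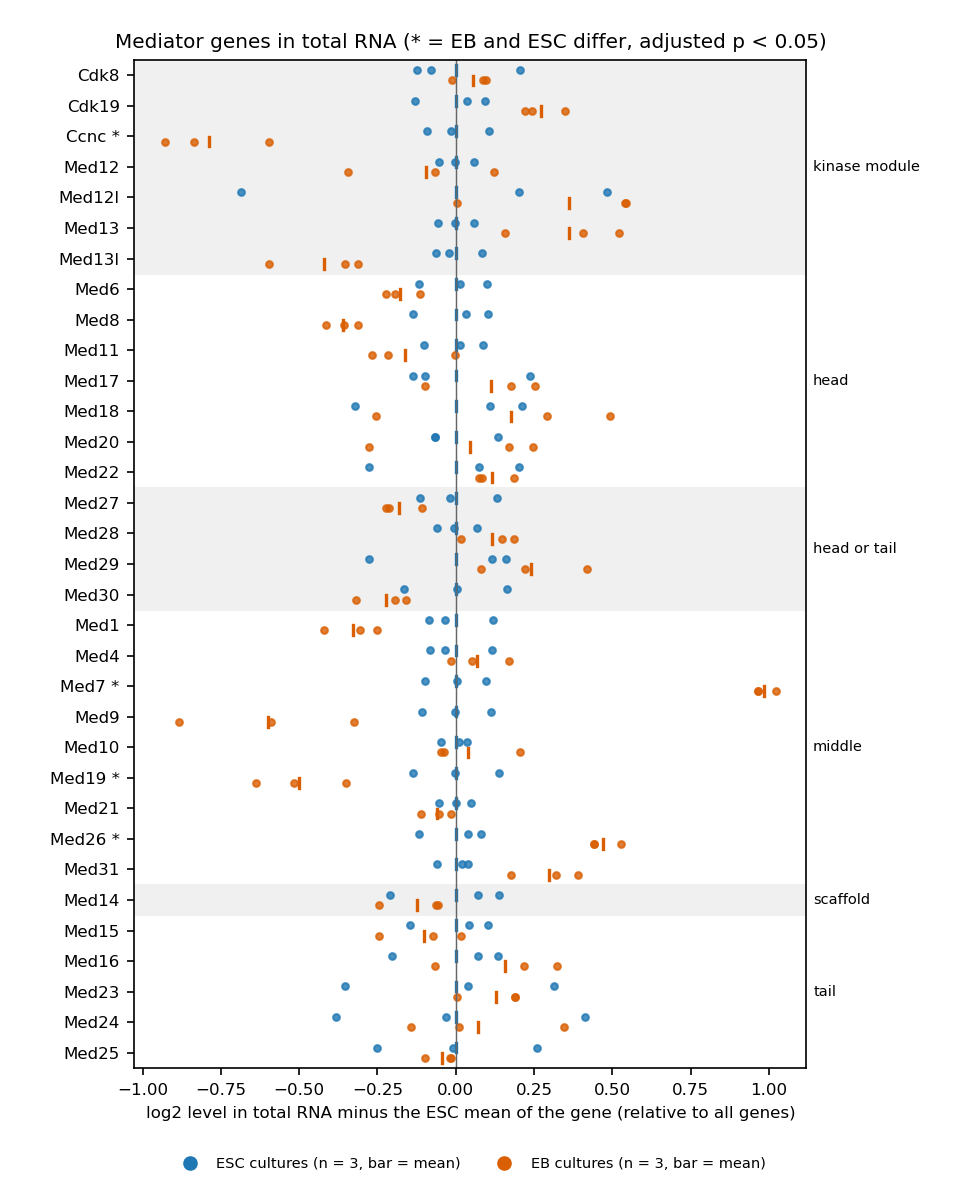
Level of each Mediator gene in total RNA, as log2 relative to all genes minus the gene's ESC mean; points are cultures (3 per state, ESC blue, EB orange), bars are means, and grey bands mark the modules. The Med7 and Med26 points of EB lie to the right of all ESC points and those of Ccnc and Med19 to the left, and on the deposited scale all 4 differences were above 0.

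The kinase module held 1 call of 7 genes in total RNA, that of Ccnc. Its kinases did not share it: Cdk8 was at 9.14, 9.43 and 9.10 in ESC and 9.21, 9.31 and 9.32 in EB (difference 0.06, adjusted p = 0.806), and Cdk19 at 6.54, 6.76 and 6.70 against 6.89, 6.91 and 7.01 (0.27, adjusted p = 0.161). The Cdk8 groups overlapped and the Cdk19 groups did not. Med12, which activates the kinase, was at 7.11, 7.05 and 7.17 in ESC and 7.23, 6.77 and 7.04 in EB, and its paralog Med12l at 6.27, 5.10 and 5.99 against 6.32, 6.33 and 5.79. Both overlapped between the states, and Med12l spread more among ESC cultures than the other genes of the module. Med13, which tethers the kinase to the core, was at 7.10, 7.21 and 7.15 in ESC and 7.56, 7.68 and 7.31 in EB (0.36, adjusted p = 0.110). Its paralog Med13l was at 9.46, 9.35 and 9.31 in ESC and 9.02, 8.78 and 9.06 in EB (-0.42, adjusted p = 0.0663). Neither paralog of Med13 overlapped between the states and neither was called. Second probe sets, not tested on their own, gave total RNA differences of 0.69 for Cdk19, 0.72 for Med13 and -0.38 for Med13l. A test of the paralogs against each other was not made.

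None of the 7 head genes, the 4 head or tail genes, the scaffold gene Med14 or the 5 tail genes was called in total RNA by limma (1 of these 17, Med8, had an unadjusted p under 0.05), with differences from -0.36 for Med8 to 0.24 for Med29. Among them the groups of Med8 did not overlap (9.57, 9.81 and 9.74 in ESC, 9.35, 9.29 and 9.39 in EB; adjusted p = 0.0803). In the middle, Med9 was at 8.72, 8.60 and 8.50 in ESC and 8.02, 7.72 and 8.28 in EB, without overlap and without a call (-0.60, adjusted p = 0.0553). The tail genes lay between -0.10 for Med15 and 0.16 for Med16.

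Across the gradient, Mediator mRNAs did not lie together. To summarise it, the mean log2 level of a culture in pools 1 and 2 was subtracted from its mean in pools 3 and 4 (the pool ratio), and on the relative scale a ratio of 0 means the same place among all genes in both pairs of pools. In ESC, 9 of 33 genes had a ratio called above 0 and 12 a ratio called below 0, against 18.1% and 14.4% of all genes. In EB the counts were 9 and 10, against 24.7% and 15.8%. Calls in either direction came to 63.6% of the Mediator genes in ESC and 57.6% in EB, against 32.5% and 40.5% of all genes. The ESC share depended on the cultures: it was 36.4% without ESC culture 2, 42.4% without ESC culture 1 and 45.5% without ESC culture 3 (21.2%, 22.8% and 23.3% of all genes), and 11 of the 21 ESC calls were kept in all 6 omissions of a culture. The EB share was 54.5% to 57.6% over the 6 omissions (33% to 40.2% of all genes), and 16 of the 19 EB calls were kept in all. With arrays centred on their median, the EB share was 66.7%, no higher than the 67.8% of all genes. The ESC share was then 51.5%, against 26.3%. On the deposited scale the shares were 48.5% in ESC (25.7% of all genes) and 75.8% in EB (64.3%). Equal amounts of RNA were labelled from every pool, so these ratios compare array signals and not the amounts of mRNA in the gradient. The Actb measure of RNA integrity also differed between pools 1 and 2 and pools 3 and 4, and its part in the ratios was not tested.

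Of these calls, 7 genes were above 0 in both states (Cdk8, Med13l, Med17, Med27, Med4, Med16 and Med24) and 7 below 0 in both (Cdk19, Med8, Med11, Med28, Med10, Med21 and Med31). Both states were taken from 1 fit that shares its error, so the calls of the states are not independent. The overlap of calls between the states was not counted over all genes, so these numbers have no background to be set against. Med18 was below 0 in ESC and above 0 in EB, and 8 genes were called in neither state. With deposited values 3 genes were called above 0 and 13 below 0 in ESC, against 7.05% and 18.6% of all genes, and 23 above and 2 below in EB, against 60.3% and 3.96%. The Cdk19, Med8, Med9, Med29 and Med30 ratios in EB, below 0 on the relative scale, were 0.20, 0.51, 0.04, 0.001 and 0.26 on the deposited scale.

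The highest ratios belonged to Med13l, Med17 and Med16 in both states. Med13l had ratios of 1.26, 1.42 and 1.20 in ESC and 1.24, 1.04 and 1.16 in EB (means 1.29, adjusted p = 1.5e-05, and 1.15, adjusted p = 8.81e-06). Every culture was above 1 and the states overlapped. Its second probe set, at lower signal, had ratios of -0.12 in ESC and 0.25 in EB, so the 2 probe sets of Med13l place its mRNA differently. Med17, the architectural core of the head, had ratios of 0.56, 0.87 and 0.48 in ESC and 0.99, 1.10 and 1.06 in EB. Med16, a tail subunit, had 0.52, 0.79 and 0.69 in ESC and 1.19, 0.83 and 0.80 in EB. All EB values of Med17 and Med16 were above all ESC values, but the differences of 0.41 (adjusted p = 0.134) and 0.28 (adjusted p = 0.346) were not called.

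The lowest ratios in ESC belonged to 3 middle genes. Med10, which joins the middle to the scaffold, had ratios of -0.90, -0.82 and -0.93 in ESC and -1.10, -1.001 and -0.99 in EB. Med21 had -1.05, -0.75 and -0.78 in ESC and -1.57, -1.40 and -1.71 in EB, the lowest of the complex. Med31 had -0.95, -0.49 and -0.78 in ESC and -1.20, -1.13 and -1.36 in EB. For all 3, every EB culture was below every ESC culture, and only the Med21 difference was called. Med11, a small head subunit, completed the lowest 3 in EB with -1.44, -1.13 and -1.36, against -0.68, -0.52 and -0.88 in ESC.

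By module, the middle had 1 ratio called above 0 and 5 called below 0 among 9 genes in ESC (median -0.34). In EB it had 1 called above and 4 called below (median -0.33). The tail had 3 called above and none called below among 5 genes in ESC (median 0.42). In EB it had 2 called above and none called below (median 0.25). For all genes the medians were 0.00 and 0.06. The shares of all genes called above and below 0 were 18.1% and 14.4% in ESC and 24.7% and 15.8% in EB. The head was mixed, with 1 called above and 3 below among 7 genes in ESC and 3 called above and 2 below in EB. Of the head or tail genes, Med27 was called above 0 in both states and Med28 called below 0 in both. Known binding partners within the head did not share a place: Med11 had a mean ratio of -0.69 in ESC and -1.31 in EB, while Med22, with which it forms a heterodimer, had 0.10 and 0.70. The difference between partners was not tested.

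The kinase module also held ratios on both sides of 0. Cdk8 had ratios of 0.49, 0.32 and 0.34 in ESC and 0.53, 0.47 and 0.52 in EB, all above 0 and called in both states (adjusted p = 0.0151 and 0.00230). The paralog kinase Cdk19 had -0.44, -0.60 and -0.40 in ESC and -0.44, -0.26 and -0.53 in EB, all below 0 and called in both (adjusted p = 0.00619 and 0.0110). A second Cdk19 probe set of nearly equal mean level (5.73 against 5.78) gave ratios of 0.27 and 0.27, and the mean of both was called in neither state (-0.10, adjusted p = 0.479, and -0.07, adjusted p = 0.630). The ESC call of Cdk8 was lost without any of ESC cultures 1, 2 and 3 (adjusted p = 0.108, 0.0646 and 0.0575), and those of Cdk19 without ESC culture 2 (0.0605 in ESC) and without EB culture 3 (0.0508 in EB). Ccnc had -0.74, -0.59 and -0.50 in ESC and -0.43, -0.54 and 0.02 in EB, called in ESC only, while the difference between the states was 0.29 (adjusted p = 0.349). Med12 had 0.31, 0.28 and 0.33 in ESC (called, adjusted p = 0.0396, and not called without EB culture 2, 0.0517, or without any ESC culture, 0.129 to 0.139) and 0.20, 0.24 and 0.24 in EB. Med12l (-0.20, -0.22 and -0.56 in ESC; 0.48, 0.14 and -0.17 in EB) and Med13 (-0.03, -0.33 and 0.08; 0.13, -0.24 and 0.02) were called in neither state.

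**Figure D2:**
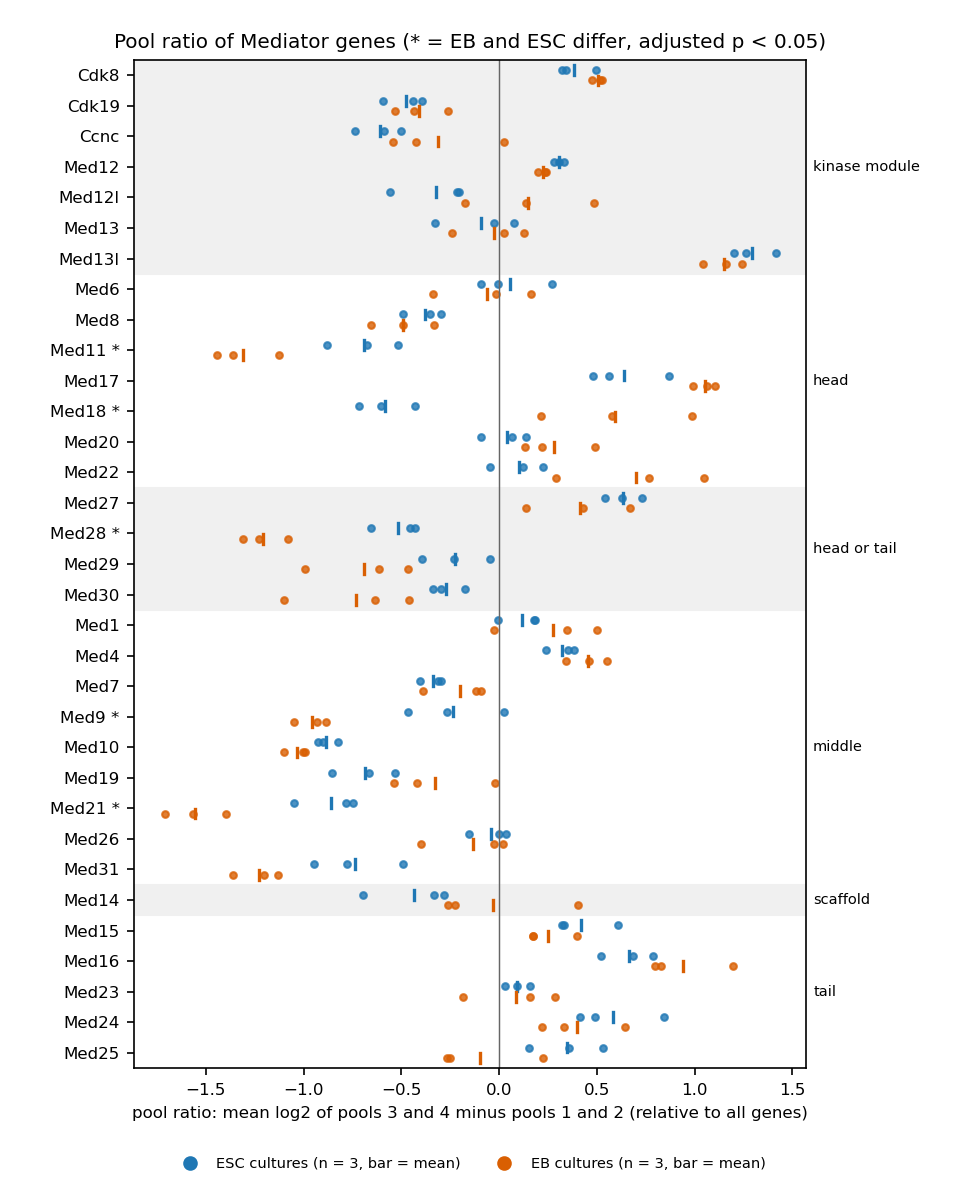
Pool ratio of each Mediator gene, that is the mean log2 level in pools 3 and 4 less the mean in pools 1 and 2, relative to all genes; points are cultures (3 per state, ESC blue, EB orange), bars are means, and grey bands mark the modules. Ratios run from Med13l, above 1 in every culture, to Med21 in EB, below -1 in every culture; the stars mark the 5 genes whose ratio was called different between the states.

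Between the states, the pool ratio relative to all genes rose in EB for Med18 and fell for Med9, Med21, Med28 and Med11, the last 4 being above 0 on the deposited scale, and 28 genes were not called. The background was 3.66% of all genes called higher and 4.72% lower, and the members' shares were 3.03% and 12.1%. The median difference was -0.08 for the 33 genes and 0.04 for all genes. On the deposited scale 28 genes were called higher and 0 lower by limma (30 and 0 at an unadjusted p under 0.05), against 64.6% and 0.0831% of all genes, and the median of all genes was 0.73. Without ESC culture 2 none of the 33 genes was called by limma (10 had an unadjusted p under 0.05), and 0.128% of all genes were.

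Med18, which with Med20 forms the movable jaw of the head, had ratios of -0.60, -0.72 and -0.43 in ESC and 0.58, 0.22 and 0.99 in EB. The difference was 1.18 ± 0.20 (adjusted p = 0.00948) and was 2.21 on the deposited scale. In pool 1 its level was 8.81, 8.69 and 7.86 in ESC and 7.10, 7.68 and 7.92 in EB, and in pool 3 it was 8.01, 7.84 and 7.47 in ESC and 8.61, 8.61 and 8.33 in EB. The pool 1 groups overlapped, and in pool 3 every EB culture was above every ESC culture. In pool 2 the EB values were 8.15, 8.19 and 6.25, the last on the array that stood apart, against 8.04, 8.03 and 8.23 in ESC. Without EB culture 3 the difference was 0.99 (adjusted p = 0.0171), and without ESC culture 2 it was 1.12 (adjusted p = 0.0669). Measured as pool 4 minus pool 1, the Med18 difference had an adjusted p of 0.0865. Its jaw partner Med20 differed by 0.24 (adjusted p = 0.389).

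The stretch upstream of the Med18 start, with capitals as above, is shown because its gene had the largest difference in pool ratio. It is chr4:132463922-132464171 on the minus strand of GRCm38.p6, and 1 GC box was the only match to the motifs searched.
Med18: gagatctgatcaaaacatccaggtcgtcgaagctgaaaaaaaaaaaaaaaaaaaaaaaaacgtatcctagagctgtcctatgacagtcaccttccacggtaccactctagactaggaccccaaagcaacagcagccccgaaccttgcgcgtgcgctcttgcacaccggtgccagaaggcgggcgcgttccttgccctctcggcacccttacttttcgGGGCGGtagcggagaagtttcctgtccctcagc

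The 4 genes whose ratio fell are small core subunits. Med9, a middle subunit, had ratios of 0.03, -0.27 and -0.47 in ESC and -0.93, -0.88 and -1.05 in EB, a difference of -0.72 ± 0.17 (adjusted p = 0.0274). Med21 differed by -0.70 ± 0.16 (adjusted p = 0.0270), from the culture values given above. Med28 had -0.66, -0.46 and -0.43 in ESC and -1.31, -1.08 and -1.23 in EB, a difference of -0.69 ± 0.16 (adjusted p = 0.0229). Med11 differed by -0.62 ± 0.17 (adjusted p = 0.0438). No EB culture overlapped an ESC culture in any of them. The fall is relative to all genes: on the deposited scale the differences were +0.40 for Med9, +0.45 for Med21, +0.49 for Med28 and +0.47 for Med11, none called, and with arrays centred on their median they were -0.41, -0.35, -0.31 and -0.33, none called.

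These 4 calls were close to the threshold. With 1 culture left out, the adjusted p of Med9 ran from 0.0430 without ESC culture 3 to 0.110 without ESC culture 1, and the other 4 omissions also lost the call. That of Med21 was under the threshold only without EB culture 2 (0.0377), and that of Med28 only without EB culture 2 or 3 (0.0367 and 0.0404), while both were over it without any ESC culture or EB culture 1, and Med21 also without EB culture 3 (0.0553). Med11 was over the threshold in all 6 omissions (0.0508 without EB culture 2 to 0.179 without ESC culture 2). A second, dimmer probe set gave differences of +0.32 for Med9 and +0.06 for Med28, and the mean of the probe sets gave -0.20 (adjusted p = 0.420) and -0.32 (adjusted p = 0.210).

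**Figure D3:**
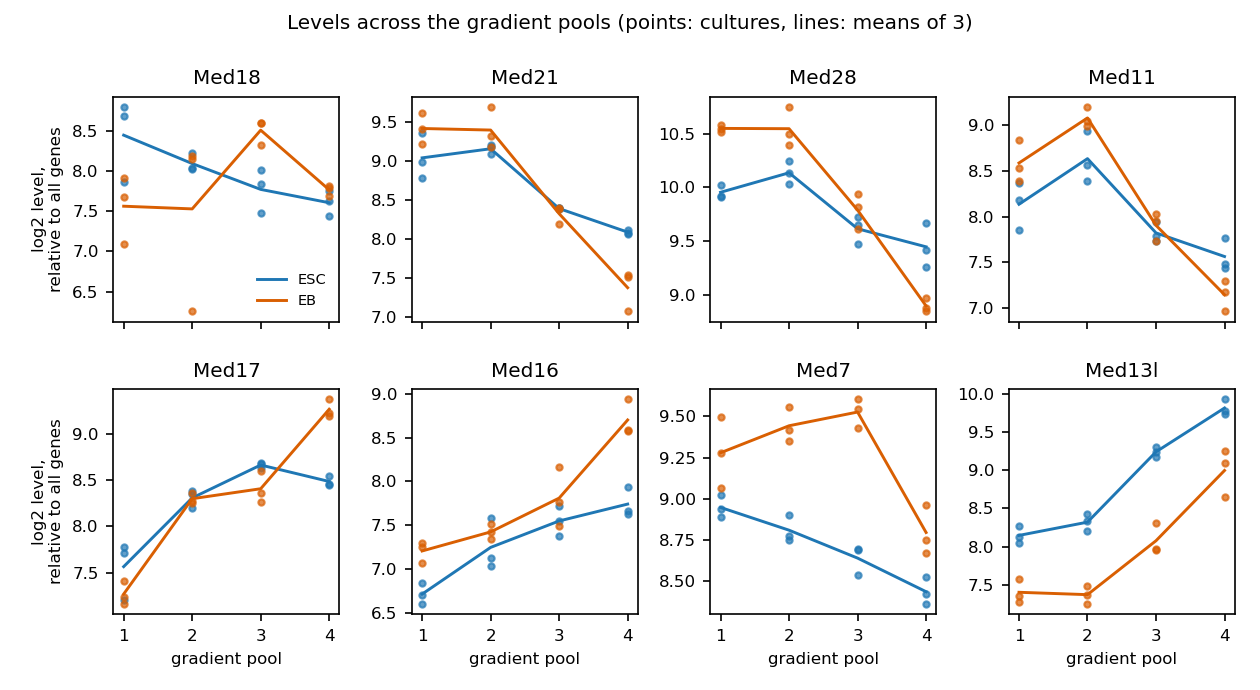
Log2 level relative to all genes in gradient pools 1 to 4 for 8 Mediator genes; points are cultures (3 per state) and lines join the means, ESC blue and EB orange, with a separate vertical scale for each gene. By their means, Med18 lies highest in pool 1 in ESC and in pool 3 in EB, Med21, Med28 and Med11 fall from pool 2 to pool 4 more steeply in EB, and Med13l in EB lies below ESC in every pool, which on the deposited scale held in pools 1 and 2 alone.

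Within single pools, the states differed most often in pool 4. There 10 genes were called higher in EB and 11 lower, against 14.4% and 15.1% of all genes, so that 63.6% of the Mediator genes were called in either direction against 29.5% of all genes. Leaving out 1 culture gave 8 to 13 calls, or 24.2% to 39.4% of the Mediator genes, against 20.1% to 26.9% of all genes. An offset of 16 in place of 32 gave 13 (39.4%) against 28.8%. With arrays centred on their median the share was 42.4%, below the 59.9% of all genes, so the excess depends on the scale. Of the 21 calls, 6 were kept in all 6 omissions: Med16, Med17, Med26, Med27, Med21 and Med13l. In pool 1 the counts were 2 higher and 2 lower (4.51% and 5.45% of all genes), in pool 2 they were 2 and 3 (3.95% and 5.45%), and in pool 3 they were 4 and 4 (10.5% and 12.3%). The deposited scale gave 33 higher and 0 lower in pool 4 (75.4% and 0.37% of all genes), 25 and 0 in pool 3 (55% and 0.0831%), and 0 and 0 by limma in pool 2 (2.14% and 0.34%) and pool 1 (0% and 0%), where 9 and 0 in pool 2 and 0 and 0 in pool 1 had an unadjusted p under 0.05.

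The largest rises in pool 4 were in Med16 and Med17. Med16 was at 7.63, 7.66 and 7.93 in ESC and 8.94, 8.58 and 8.59 in EB, a difference of 0.96 ± 0.14 (adjusted p = 0.00224). Med17 was at 8.54, 8.45 and 8.46 in ESC and 9.23, 9.37 and 9.20 in EB, a difference of 0.78 ± 0.10 (adjusted p = 0.00119). Neither overlapped, and both calls were kept under all 14 alternative settings, with differences of at least 0.84 and 0.73. The other genes called higher were Cdk19, Med12l, Med13, Med27, Med7, Med26, Med14 and Med25, from 0.36 for Med7 to 0.53 for Med26. Med12l had 2 of its 3 ESC pool 4 values at the lowest value of the array, where a level has no order, and its call was kept only without ESC culture 2 (adjusted p = 0.0162) and lost in the other 5 omissions (0.0932 to 0.135). It turned to -0.30 (not called) with arrays centred on their median.

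Med21 was lower in pool 4, at 8.06, 8.09 and 8.12 in ESC and 7.07, 7.54 and 7.52 in EB, by 0.71 (SE 0.14, adjusted p = 0.00769). Med28 was at 9.26, 9.41 and 9.66 in ESC and 8.84, 8.97 and 8.87 in EB pool 4, and in pool 1 it was called in the opposite direction, at 9.91, 10.03 and 9.92 in ESC and 10.58, 10.55 and 10.52 in EB (-0.55 and 0.60, adjusted p = 0.0129 and 0.0286). The Med28 pool 1 call was kept only without EB culture 3 (adjusted p = 0.0485) and lost in the other 5 omissions (0.0567 to 0.0969) and with the replicate block (0.0859), and its pool 4 call was lost without EB culture 3 (0.0530). The second, dimmer probe set of Med28 gave 0.12 in pool 1 and -0.002 in pool 4, and the mean of both was called in neither (adjusted p = 0.158 and 0.152). Also called lower in pool 4 were Ccnc, Med13l, Med8, Med11, Med29, Med1, Med9, Med10 and Med31, from -0.82 for Med13l to -0.28 for Med10. Each of the 11 genes was above 0 on the deposited scale, from 0.54 for Med21 to 1.06 for Med10. Of the 9 middle genes, 5 were called lower and 2 called higher in pool 4. Of the 5 tail genes, 2 were called higher and none lower. The shares of all genes called in pool 4 were 15.1% lower and 14.4% higher.

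Relative to all genes, Med13l and Med1 were called lower in EB in all 4 pools, while on the deposited scale both were below 0 in pools 1 and 2 and above 0 in pools 3 and 4. Med13l was at 8.12, 8.05 and 8.28 in ESC pool 1 and 7.58, 7.28 and 7.35 in EB pool 1, and at 9.24, 9.30 and 9.18 against 8.31, 7.97 and 7.96 in pool 3. Its differences were -0.74, -0.95, -1.16 and -0.82 in pools 1 to 4, with adjusted p-values of 0.0257, 0.00863, 0.00026 and 0.00788, and no pool overlapped. Its second probe set gave -0.93, -0.83, -0.76 and -0.25. The Med13l differences on the deposited scale were -0.55, -0.61, 0.12 and 0.56. The pool 1 call was lost in each omission but that of EB culture 1 (adjusted p from 0.0607 to 0.0905), and that of pool 2 without ESC culture 1 (0.0548). The pool 3 and pool 4 calls were kept in all 6.

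Med1, the middle subunit that binds nuclear receptors, had differences of -0.91, -0.73, -0.65 and -0.68 in pools 1 to 4 (adjusted p = 0.0305, 0.0339, 0.00534 and 0.0197). Its pool 3 values were 8.01, 7.80 and 7.84 in ESC and 7.41, 7.08 and 7.21 in EB, without overlap. The 7 probe sets of Med1 did not share a direction: a second of nearly equal level (7.49 against 7.51) gave -0.95, -0.30, -0.38 and -0.51, while another gave 0.68, 0.77, 0.53 and 0.49, and the mean over all 7 was called in no pool. The Med1 differences on the deposited scale were -0.67, -0.37, 0.57 and 0.61. Without 1 culture the pool 3 call was kept in all 6 cases, the pool 1 call in none (adjusted p from 0.0508 to 0.106), the pool 2 call only without EB culture 3 (0.0393), and the pool 4 call was lost without ESC culture 1, EB culture 2 or EB culture 3 (0.0523, 0.0527 and 0.0779).

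Med7, higher in total RNA, was also called higher in EB in pools 2, 3 and 4, with differences of 0.63, 0.88 and 0.36 (adjusted p = 0.0375, 0.000606 and 0.0443), and was at 0.33 in pool 1 (adjusted p = 0.229). Its pool 3 values were 8.70, 8.69 and 8.54 in ESC and 9.60, 9.43 and 9.54 in EB. All 4 pools were without overlap. The pool 3 call was kept in all 6 omissions of a culture, that of pool 2 only without EB culture 3 (0.0304) and that of pool 4 only without EB culture 1 (0.0455). The pool ratio of Med7 did not follow its level: it differed by 0.14 between the states (adjusted p = 0.628). Med27 was called higher in pools 1, 3 and 4 (0.82, 0.38 and 0.44) while its total RNA difference was -0.18 (adjusted p = 0.339). Without 1 culture its pool 4 call was kept in all 6 cases, the pool 1 call, in which 1 ESC value was at the lowest value of its array, in none (adjusted p from 0.0693 to 0.112), and the pool 3 call only without ESC culture 2 (0.0472).

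**Figure D4:**
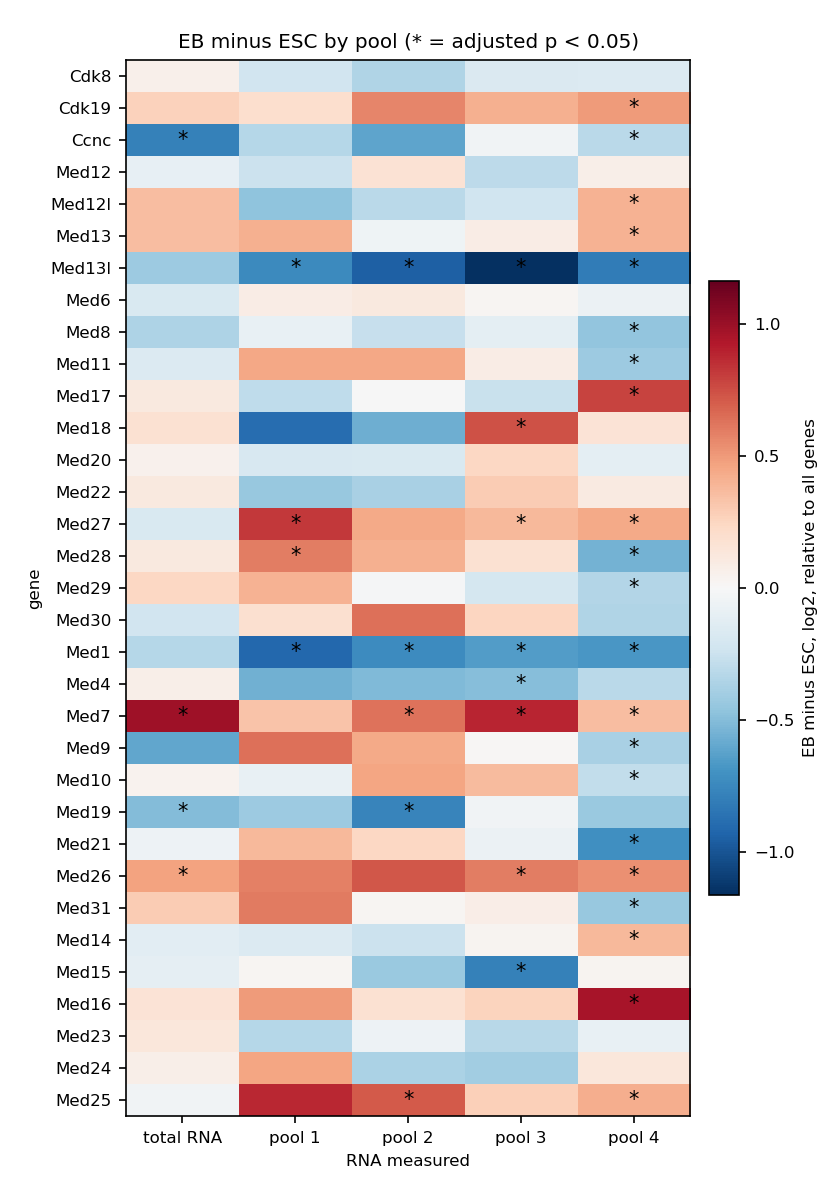
EB minus ESC difference of each Mediator gene (log2, relative to all genes, mean of 3 cultures per state) in total RNA and in gradient pools 1 to 4; red is higher in EB, blue is lower, and stars mark differences called by limma. In the pool 4 column 21 of the 33 genes carry a star, and Med13l and Med1 are blue with a star in all 4 pools, of which pools 3 and 4 were above 0 on the deposited scale.

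The pool with the highest level was the same in all 3 cultures for 15 genes in ESC (4 in pool 1, 6 in pool 2, 3 in pool 3 and 2 in pool 4) and for 21 in EB (4, 5, 6 and 6). The other 18 and 12 genes peaked in different pools in different cultures. The same count over all genes was not made, so these counts and their change between the states have no background to be set against.

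Other parts of the transcription machinery were counted in the same fits. In total RNA, 1 of 10 RNA polymerase II subunits was called higher (Polr2e, 1.02), 2 of 29 general transcription factors lower (Taf5, -0.69, and Taf6, -0.58), 2 of 18 genes of P-TEFb and elongation higher (Cdk9, 0.51, and Mepce, 0.70), and 1 of 10 genes of cohesin and its loader higher (Pds5a, 0.73), against 6.47% of all genes called higher and 5.88% lower. In the difference of pool ratio, 3 of 10 polymerase subunits were called lower (Polr2f, Polr2i and Polr2j, from -1.004 to -0.72) and none higher. Of all genes 4.72% were called lower and 3.66% higher. Of the general factors, Taf10 was called lower (-0.94) and Taf2, Taf7 and Gtf2e1 called higher (0.66 to 0.81). Among the 18 genes of P-TEFb and elongation none was called by limma (7 were higher at an unadjusted p under 0.05), and among the 10 of cohesin and its loader Wapl was higher (0.58). In pool ratio within ESC and EB, 10 and 11 of the 18 elongation genes were called above 0 and 2 and 0 below 0. Their medians were 0.36 and 0.46. Of all genes, 18.1% and 24.7% were called above 0 and 14.4% and 15.8% below 0. The Mediator genes had medians of -0.09 and -0.03. No test compared these lists.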

How the data were processed

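The deposited values are log2 signals of 45101 probe sets on 30 Affymetrix arrays, in 10 groups of 3 cultures, which the labels call biological replicates. What the authors did to make them is stated only as the tool names MAS5 and affy, per the submitters' processing notes. How arrays were scaled is not given in the sources used here. The mean log2 signal of 27 Bacillus spike-in probe sets ran from 8.67 to 9.13 over the 30 arrays, and that of 18 hybridisation controls from 9.60 to 13.9. Pool arrays have a common lowest value within each replicate number (8 arrays). The number of arrays limits the precision.

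Probe sets were named from the platform annotation: 34945 had 1 symbol, 932 several, 9160 none, and 64 were controls. Probe sets in the lowest 40% by mean log2 signal (under 3.80) were dropped, and the probe set with the highest mean stood for a gene. Deposited values were made linear, 32 was added, and log2 values were quantile-normalized over the arrays of a fit (6 of total RNA, 24 of pools). This scale was taken because, on the deposited scale, the pool ratio fit gave every gene 1 common standard error (0.236). Differences were tested two-sided with limma 3.58.1 in R 4.3.3 (lmFit, eBayes) and adjusted by Benjamini-Hochberg over 13240 genes, after testing the code on simulated data.

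Full statistics are given for genes called in total RNA or in the difference of pool ratio (at most 8 per direction), and values by culture for the kinase module and the 3 highest and lowest pool ratios of each state. Genes named in single pools, outside that rule, were chosen after their values were seen. The Mediator genes, the comparison lists and the markers were chosen with earlier results of these data known. Fits with another scale, offset, filter, probe set rule, prior or ratio, with a replicate block, and without each culture were run as alternatives. Deviations of cultures with 1 number correlated at 0.13, 0.10 and 0.17 in pool 2, all over 0.1, so the numbers were taken to pair cultures there, for which the labels give no source. In other fits at least 1 pair was lower. The calls reported, also those of pool 2, are from fits without a replicate block. A marker, T, was not analysed here.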

Additional observations from a re-analysis of the deposited data

Results flagged for a closer look

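The effect of the pool differed between the states, by limma's test of the difference in pool ratio, for 5 genes: Med18 (1.18, adjusted p = 0.00948, higher in 3 of 3 EB cultures than in any ESC culture), Med9 (-0.72, adjusted p = 0.0274), Med28 (-0.69, adjusted p = 0.0229), Med21 (-0.70, adjusted p = 0.0270) and Med11 (-0.62, adjusted p = 0.0438), the last 4 lower in 3 of 3 EB cultures. Med18 was positive on every scale run. The other 4 were negative relative to all genes and positive on the deposited scale. The 5 calls were 15.2% of the Mediator genes, against 8.38% of all genes called in either direction. Of the 5 calls, 0 were kept in all 6 omissions of a culture.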

How the results depend on the processing

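Counts are of Mediator genes called higher and lower. The share of all genes called in either direction follows each set, and the shares for the deposited scale are given above. On the deposited scale they were 33 and 0 in total RNA, 28 and 0 for the difference of pool ratio, 3 (higher) for the ratio in ESC, 23 and 2 for the ratio in EB, 0 and 0 in pools 1 and 2, 25 and 0 in pool 3, and 33 and 0 in pool 4. With arrays centred on their median they were 9 and 0 for the difference of pool ratio. In single pools they were 0 (higher) in pool 1, 0 and 1 in pool 2, 7 (higher) in pool 3 and 3 (lower) in pool 4. Calls in either direction were then 27.3% of the Mediator genes for the difference of pool ratio, below the 36.8% of all genes. In pools 1 to 4 they were 6.06%, 3.03%, 33.3% and 42.4%, against 6.28%, 4.35%, 34.2% and 59.9% of all genes. An offset of 16 gave 1 lower in total RNA (10.4% of all genes) and 0 lower for the difference of pool ratio (3.75%). In single pools it gave 1 higher in pool 1 (8.13%), 0 higher and 1 lower in pool 2 (6.48%) and 5 lower in pool 4 (28.8%). An offset of 64 gave 4 lower in total RNA (16%) and 4 higher in pool 2 (12.1%). Without the filter the counts were 1 and 1 in total RNA (6.33% of all genes), 1 lower in pool 2 (5.33%) and 5 lower in pool 4 (20.5%). The mean of probe sets gave 1 lower in total RNA (10.1% of all genes) and 2 lower for the difference of pool ratio (7.84%). In single pools it gave 1 and 1 in pool 1 (9.09%), 1 higher in pool 2 (7.82%) and 7 lower in pool 4 (28.1%). The trend and robust prior gave 5 lower in total RNA (21.7% of all genes), 4 and 4 in pool 1 (15.9%) and 4 higher in pool 2 (11.9%). Other counts lay within 1.5 times the reported ones, and the causes were not tested.

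With the replicate block the counts were 1 and 1 in total RNA (4.65% of all genes), 0 and 0 in pool 1 (3.14%) and 8 and 8 in pool 4 (28.7%). Those of pools 2 and 3 (9.55% and 23.9%) and of the difference of pool ratio (7.96%) were as reported. Cultures of 1 number did not meet the rule for pairing, all correlations over 0.1, in total RNA (0.01, 0.02 and 0.04) or pool 1 (0.004, 0.02 and 0.05). Nor did they in pool 3 (0.18, 0.07 and 0.07), pool 4 (0.29, 0.03 and -0.0004) or the pool ratio (0.06, 0.10 and 0.02). The rule cannot exclude a pairing, and pool arrays of 1 replicate number share a lowest value.

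Leaving out 1 culture gave 1 higher and 0 to 2 lower in total RNA (3.96% to 7.31% of all genes). For the difference of pool ratio it gave 0 to 2 and 0 to 2 (0.128% to 6.08%). The ratio in ESC gave 5 to 10 and 7 to 12 (21.2% to 37.1%), and that in EB 8 to 9 and 10 to 11 (33% to 40.2%). Pool 1 gave 0 to 1 and 0 to 1 (1.74% to 5.94%), and pool 2 gave 0 to 1 and 0 to 3 (1.78% to 11.9%). Pool 3 gave 2 to 4 and 3 to 5 (13% to 19.9%), and pool 4 gave 5 to 8 and 3 to 7 (20.1% to 26.9%).

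Called differences changed sign on the deposited scale for Ccnc (0.46) and Med19 (0.78) in total RNA. In the difference of pool ratio this held for Med11 (0.47), Med28 (0.49), Med9 (0.40) and Med21 (0.45), and in the ratio in EB for Cdk19 (0.20), Med8 (0.51), Med29 (0.0014), Med30 (0.26) and Med9 (0.036). In pool 3 it held for Med13l (0.12), Med1 (0.57), Med4 (0.81) and Med15 (0.44), and in pool 4 for Ccnc (0.93), Med13l (0.56), Med8 (0.90), Med11 (0.78), Med28 (0.82), Med29 (0.60), Med1 (0.61), Med9 (0.88), Med10 (1.06), Med21 (0.54) and Med31 (0.85). The mean of probe sets turned Med1 in pool 2 (0.11) and Ccnc in pool 4 (0.015), and centring on the median turned Med12l (-0.30) and Med10 (0.055) in pool 4. Med12l and Med27 lay at the lowest value on some pool arrays, where a level has no order.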

Other observations

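The probe sets of 1 Mediator gene did not always have pool ratios of 1 sign. Some of these ratios lay near 0, such as 0.04 and -0.07 for Med20 in ESC, where the sign says little. Of the 15 genes with at least 2 probe sets above the filter, all probe sets had 1 sign for the total RNA difference in 10, for the pool ratio in ESC in 8, for that in EB in 7, and for the difference of pool ratio in 5. For Med13l the probe sets had total RNA differences of -0.42 and -0.38, but pool ratios of 1.29 and -0.12 in ESC and 1.15 and 0.25 in EB. The 7 probe sets of Med1 had pool ratios from -0.58 to 0.66 in ESC and from -0.97 to 0.27 in EB. For Cdk19 the probe sets at 5.78 and 5.73 had ratios of -0.48 and 0.27 in ESC. These values were looked up after the ratios were seen, and what each probe set matches was not analysed here. The share of all genes whose probe sets had 1 sign was not counted.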
